A study of Mus musculus with 24 samples.

Results

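Serotonin receptors were followed in the hippocampus of mice whose fathers or grandfathers had eaten a methyl donor-rich diet. All probes for Htr1a, Htr1b, Htr1d, Htr2a, Htr2c, Htr3a, Htr4, Htr5a, Htr6 and Htr7 were taken by gene name, whatever their values. This gave 13 probes for 10 genes, out of 39429 distinct probes for 19751 named genes on the array. Htr2c had 3 probes, Htr4 had 2, and the other 8 genes had 1 probe each.

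Serotonin reaches the hippocampus through axons of raphe neurons in the brainstem, and the cells that respond carry several kinds of receptor. Htr1a, Htr1b, Htr1d and Htr5a couple to inhibitory G proteins, Htr2a and Htr2c couple to Gq and phospholipase C, and Htr4, Htr6 and Htr7 couple to Gs and raise cyclic AMP. Htr3a is the exception in the family, a subunit of an ion channel that serotonin opens directly and that is found mainly on interneurons. Htr2c is also abundant in the epithelium of the choroid plexus, the tissue that makes cerebrospinal fluid and lies against the hippocampus, where Ttr (transthyretin) is the best known transcript.

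The fathers (F0) ate either the control diet T.2918.12 (CD) or the methyl donor diet 3MS ZM (MD), enriched in folic acid, vitamin B12, choline, betaine, methionine and zinc, for 6 weeks before mating, and all offspring ate the control diet. F1 mice were the children of these fathers. For F2, the sires were sons from either diet line and the dams always descended from the control line, so that the F2 groups were set apart by the diet of the paternal grandfather. The mice were hybrids of C57BL/6J and 129S6/SvEv, called congenic in the F1 labels and mixed in the F2 labels, without a transgene, and the labels give an age of 4 weeks while the study describes adults.

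Each diet in each generation, 4 groups called CD F1, MD F1, CD F2 or MD F2, had 6 Agilent single-color arrays, 24 in all, and each array held a pool of hippocampal RNA from 4 mice. Pools hide the spread between mice, and in bulk tissue fewer cells of a type and less RNA per cell cannot be told apart. A level here is the log2 of the background-subtracted spot intensity after quantile normalization within a generation. Between 33926 and 37013 spots were well above background on the CD F1 arrays and between 34040 and 35585 on the MD F1 arrays. The range was wider in F2, from 28000 to 34661 in CD F2 and from 27383 to 33742 in MD F2. The lowest of these belonged to CD F2 replicate 6 and MD F2 replicate 3. Their mean correlation with the other arrays of their generation was also the lowest, at 0.977 and 0.974, and in F1 the lowest was MD F1 replicate 6 at 0.985. F1 and F2 arrays shared no slide and were scanned on separate days, so generation and slide cannot be told apart and no receptor level is compared between generations.

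Sex-linked transcripts separated the pools of F2. The mean of Ddx3y, Eif2s3y, Kdm5d and Uty minus Xist, in log2 units, ran from -2.30 to -1.90 in CD F1 and from -2.15 to 0.16 in MD F1. In F2 it was between 5.23 and 7.26 on 9 arrays, and it was -7.57 and -7.66 on CD F2 replicates 3 and 5 and -7.43 on MD F2 replicate 6. Thus the F2 pools stood in separate sets, 9 with the pattern of males and the others with that of females. The F1 pools lay between these sets, and their mean was higher in MD F1 (-1.29 ± 0.863, SD, n = 6) than in CD F1 (-2.03 ± 0.160, SD, n = 6). Hippocampal markers were present throughout, with Neurod2 or Zbtb20 the brightest of 14 markers of hippocampal neurons and none of the 14 under background in any group.

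Of the 13 receptor probes, 8 were well above background on all 24 arrays. These were the single probes of Htr1a, Htr2a, Htr3a, Htr6 and Htr7, the brighter probe of Htr4 and the brighter 2 of the 3 Htr2c probes. The other 5 were near background on some arrays and passed on 21 arrays (Htr1b, Htr1d and the faintest Htr2c probe) or 22 arrays (Htr5a and the fainter Htr4 probe). In F1 the probes of Htr1d and Htr5a and the fainter Htr4 probe passed on every array, the last at 5.22 to 6.91. Values of these 5 are close to the limit of the assay, except the fainter Htr4 probe in F1, and are given as such.

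**Figure D1:**
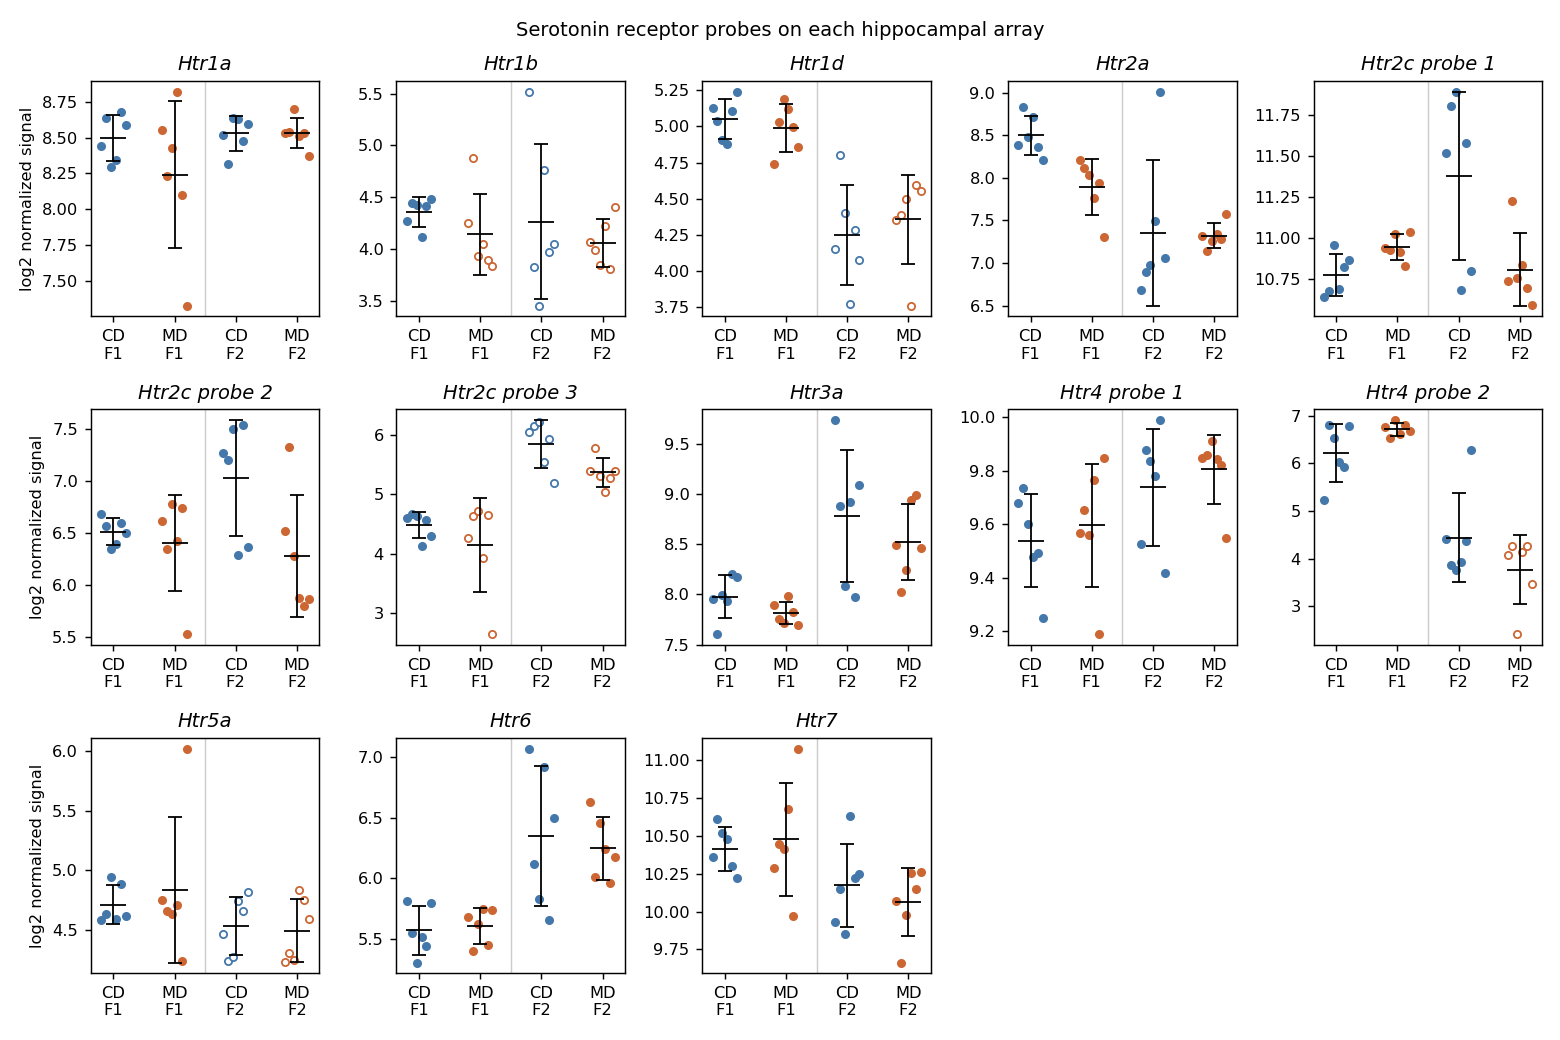
Log2 normalized signal (y axis, scaled for each probe) of the 13 receptor probes on each array, by generation (F1 left, F2 right) and diet. Points are arrays, open where the probe was not well above background on every array of the group, and bars are the mean ± SD of 6 arrays. Htr2a is lower in every MD F1 array than in every CD F1 array, and the Htr2c probes are spread widely in CD F2.

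The first comparison asked whether the diet of the father moved receptor transcripts in his offspring. No receptor probe passed the threshold in F1 (FDR under 0.1, limma), where 0.033% of all probes passed. Before adjustment, 2 of the 13 probes had a p under 0.05, beside 14.4% of all probes. They were Htr2a, lower in MD F1 as were 7.48% of all probes, and the brightest Htr2c probe, higher as were 6.96%. The median log2 fold change of the 13 probes was -0.06, and that of all probes was 0.01. Scaling to the 75th percentile instead of quantile normalization gave medians of -0.20 and -0.013. The family thus gave a share close to that of the array as a whole, and Htr2a was the member with the largest difference among probes above background on all arrays.

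Htr2a encodes the Gq-coupled receptor of cortical and hippocampal neurons through which hallucinogens act. In CD F1 its levels ran from 8.21 to 8.83 with a median of 8.43, and in MD F1 from 7.30 to 8.21 with a median of 7.99. All 6 MD F1 arrays lay under all 6 CD F1 arrays, but only just, since the highest MD F1 array stood at 8.206 and the lowest CD F1 array at 8.214. Among all probes, 1.79% had groups that did not overlap in F1, and Htr2a was the only 1 of the 13 receptor probes. Mean levels were 8.50 ± 0.233 (SD, n = 6) for CD F1 against 7.89 ± 0.327 (SD, n = 6) for MD F1, and the log2 difference of -0.60 (SE 0.155, 95% interval -0.94 to -0.27) missed the threshold (limma, FDR = 0.202). The lowest MD F1 array was the distant replicate 6, and leaving out 1 array gave differences from -0.67 to -0.48. Within the 3 slides the difference was -0.93, -0.32 and -0.56, the first being from the slide that held MD F1 replicate 6. With the sex-linked measure as a further term in the model it was -0.35 (limma, FDR = 0.435); the part of that measure in the difference was not tested further.

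Htr2c, the other Gq-coupled member, showed a small difference that its probes did not share. The brightest probe (A_55_P1977503, probe 1) had levels from 10.64 to 10.96 in CD F1 (median 10.76) and from 10.83 to 11.04 in MD F1 (median 10.93). These ranges overlapped, and the log2 difference was 0.17 (SE 0.0692, limma, FDR = 0.310). Probe 2 (A_55_P2068461) differed by -0.11 (FDR = 0.794) and the faint probe 3 (A_55_P2158921) by -0.34 (FDR = 0.616, both limma). Both fainter probes had their lowest level on MD F1 replicate 6, at 5.52 and 2.63, and without that array their differences were 0.07 and -0.04. The 3 probes thus did not share a direction in this fit. Over the 12 F1 arrays probe 1 had r = -0.40 with probe 2 and -0.37 with probe 3, while probes 2 and 3 had r = 0.886. Whether the 3 probes read the same transcripts was not tested. With the sex-linked measure as a further term all 3 differences were above 0, at 0.12, 0.25 and 0.23, and none passed (limma, FDR = 0.621, 0.504 and 0.754); the part of that measure was not tested further.

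The receptors that couple to inhibitory G proteins did not pass the test in F1. Htr1a, the main inhibitory receptor of hippocampal pyramidal neurons, had levels from 8.30 to 8.68 in CD F1 and from 7.33 to 8.82 in MD F1, with a log2 difference of -0.25 (95% interval -0.70 to 0.19, limma, FDR = 0.573). The low end of MD F1 was again replicate 6, and without it the difference was -0.07. For Htr1b and Htr1d, found on axon terminals, the differences were -0.21 and -0.06, and for Htr5a it was 0.12, with intervals that all held 0 (limma, FDR from 0.543 to 0.824). Leaving out 1 array gave -0.36 to -0.15 for Htr1b, -0.10 to -0.0095 for Htr1d and -0.11 to 0.24 for Htr5a. Scaling to the 75th percentile gave -0.36 for Htr1b.

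The Gs-coupled members and the ion channel subunit did not pass either. Htr7 had levels from 10.22 to 10.61 in CD F1 and from 9.97 to 11.07 in MD F1, with a difference of 0.06 (95% interval -0.27 to 0.40). Htr6 differed by 0.03 (95% interval -0.19 to 0.26), and the brighter Htr4 probe (A_55_P1990400) by 0.06 (95% interval -0.19 to 0.31). For these 3 probes a mean change of more than 0.40 on the log2 scale lies outside the intervals. The fainter Htr4 probe (A_52_P581594) differed by 0.50 (SE 0.237, limma, FDR = 0.353), with CD F1 arrays spread from 5.22 to 6.80 and MD F1 arrays from 6.54 to 6.91, so that the 2 probes of this gene gave differences of unlike size. Without CD F1 replicate 1 the difference of the fainter probe was 0.30. Htr3a was at 7.60 to 8.20 in CD F1 and 7.70 to 7.98 in MD F1, a difference of -0.16 (95% interval -0.38 to 0.05).

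**Figure D2:**
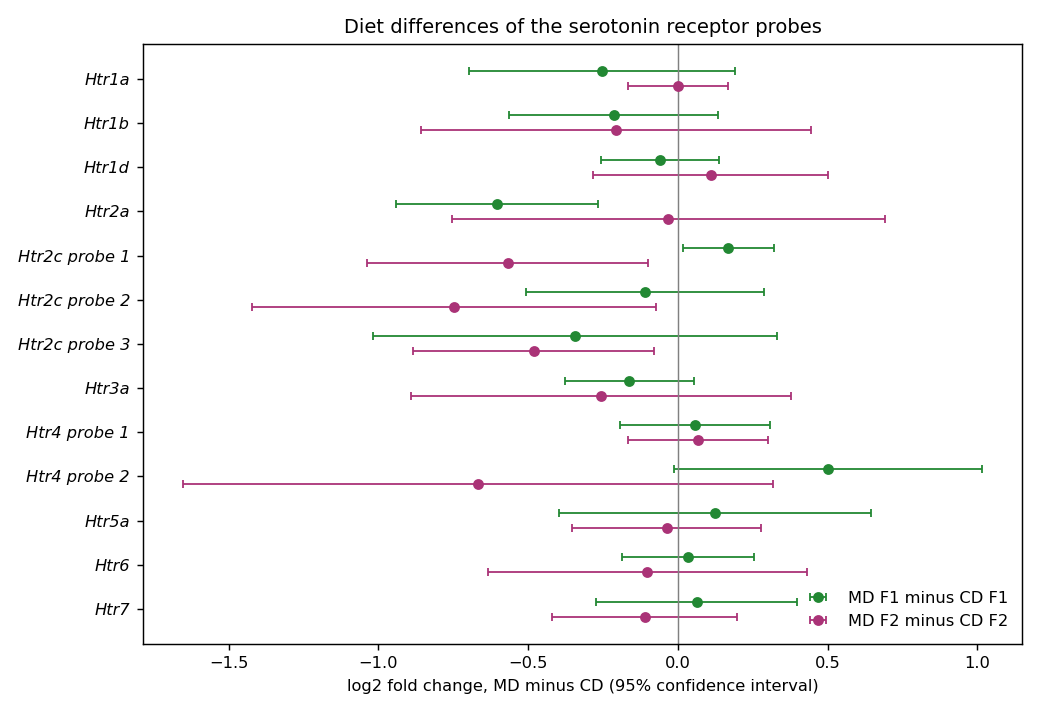
Log2 fold change of MD against CD (x axis) for the 13 receptor probes in F1 and in F2, with 95% confidence intervals from limma for 6 arrays per group. The intervals of Htr2a in F1, of the brightest Htr2c probe in F1 and of all 3 Htr2c probes in F2 leave out 0, and no probe passed FDR under 0.1 in either generation.

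The second comparison asked whether anything of the kind was seen in the grandchildren. No receptor probe passed the threshold in F2 (limma, FDR under 0.1), nor did any of 39423 probes tested, so that the share for the array was 0%. Before adjustment, 2209 probes had a p under 0.05, which is 5.6%, and 3 of the 13 receptor probes were among them. All 3 were Htr2c probes, and they were lower in MD F2. Over the whole array 2.38% of probes were lower and 3.22% higher at that level. The 3 probes are assigned to 1 gene and were read on the same arrays, so they are not 3 independent results. Over the 12 F2 arrays their pairwise r was 0.896 (probes 1 and 2), 0.914 (1 and 3) and 0.895 (2 and 3).

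In F2 the levels of Htr2c fell into a high and a low set of arrays in both diets. The brightest probe was at 11.52, 11.80, 11.88, 10.69, 11.58 and 10.80 on CD F2 replicates 1 to 6. On MD F2 replicates 1 to 6 it was at 10.74, 11.23, 10.76, 10.84, 10.699 and 10.60. Thus 4 CD F2 arrays and 1 MD F2 array stood above 11, the other 7 lay between 10.60 and 10.84, and the groups overlapped. Means were 11.38 ± 0.511 (SD, n = 6) for CD F2 against 10.81 ± 0.220 (SD, n = 6) for MD F2. The log2 difference was -0.57 (SE 0.215, 95% interval -1.04 to -0.10, limma, FDR = 0.890). Probes 2 and 3 differed by -0.75 and -0.48 (limma, FDR = 0.890 for both) and were high on the same 5 arrays. Within slides the difference of the brightest probe was -0.88, 0.05 and -0.88, the middle value being from the slide on which all 4 arrays were low. With the sex-linked measure as a further term, the differences of the brightest probe and of probes 2 and 3 stayed under 0. None of them passed (limma, FDR under 0.1), and the part of that measure was not tested further.

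Ttr was high on the same 5 arrays of F2. Its levels were 17.96, 17.86, 17.79, 10.04, 17.46 and 11.46 on CD F2 replicates 1 to 6 and 14.24, 17.59, 14.22, 10.82, 10.73 and 11.004 on MD F2 replicates 1 to 6. The 12 arrays thus formed a set of 5 above 17, a pair near 14 and a set of 5 under 12, with a 242-fold range of signal. Means were 15.43 ± 3.65 (SD, n = 6) for CD F2 against 13.10 ± 2.76 (SD, n = 6) for MD F2, and the difference of -2.33 did not pass (limma, FDR = 0.925). On the 5 arrays with the most Ttr, the brightest Htr2c probe was between 11.23 and 11.88, and on the pair near 14 it was at 10.74 and 10.76, inside the span of the arrays with the least Ttr (10.60 to 10.84). Over all 12 arrays, as first planned, r with Ttr was 0.879, 0.936 and 0.860 for probes 1, 2 and 3 of Htr2c. Because the arrays fell into sets and no set held 6 of them, these values describe the sets and no test is given.

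The list of choroid plexus markers was high on the same arrays. All 26 genes of the list, Ttr included, had lower means in MD F2 (median log2 fold change -1.64), as did 45.7% of all probes. Of the 26, 0 passed the threshold and 3 were lower with an unadjusted p under 0.05 (limma), where 2.38% of all probes were. Over the 12 F2 arrays Ttr and the mean of the other markers had r = 0.979, so the 26 are not independent results. The summed signal of the list was between 333400 and 498720 on 4 CD F2 arrays and 362790 on MD F2 replicate 2. On the other F2 arrays it was between 28169 and 64172. Each of the 26 markers was well above background on some arrays of every group, though not always on all 6 (Kcne2 on 4 in CD F2 and 4 in MD F2). Enpp2 was the brightest by group mean. With the Ttr level as a term in the model, the F2 differences of the 3 Htr2c probes were -0.32, -0.36 and -0.27, against -0.57, -0.75 and -0.48 without it, and 0 of the 3 passed the threshold in that fit (limma). How much of the Htr2c difference in whole hippocampus comes from choroid plexus RNA was not tested.

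The F2 labels carry the codes lh (the 3 lowest replicate numbers of each diet) and rh (the 3 highest), whose meaning is not given. Ttr was under 12 on 5 of the 6 rh arrays and on none of the 6 lh arrays. Diet was balanced over the code, and with the code in the model the F2 difference of the brightest Htr2c probe stayed at -0.57 (limma, FDR = 0.643).

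In F1 the spread of Ttr was also wide, but Htr2c did not follow it on its brightest probe. Ttr was at 11.10 on CD F1 replicate 4 and 11.11 on MD F1 replicate 4, and between 14.58 and 17.66 on the other 10 arrays, a 94.2-fold range in all. The 10 arrays were chosen after their Ttr levels were seen. Over all 12 arrays, as first planned, r with Ttr was 0.17, 0.37 and 0.43 for probes 1, 2 and 3 of Htr2c (rho = 0.098, 0.762 and 0.532). Over the 10 arrays the correlation of Ttr with the brightest Htr2c probe was r = -0.05 (rho = -0.09, permutation p = 0.891 and 0.812). Probe 2 gave r = 0.770 (rho = 0.818, permutation p = 0.00226 and 0.00574, 0.0136 and 0.0172 after adjustment over 6 relations), and r = 0.763 on values centred within slides. Probe 3 gave r = 0.581 (rho = 0.236, permutation p = 0.0733 and 0.513, 0.147 and 0.770 adjusted). After leaving out the 2 arrays farthest from the median of Ttr, 8 arrays were left. On these r was 0.419 for the brightest probe, 0.606 for probe 2 and -0.17 for probe 3 (permutation p = 0.308, 0.103 and 0.724). The relation of probe 2 thus kept its sign and no longer passed, on fewer arrays, and 1 of the arrays left out was the distant MD F1 replicate 6. On the 2 arrays with the least Ttr the brightest Htr2c probe was at 10.69 and 10.91, within the span of the rest. The choroid plexus list had higher means in MD F1 for all 26 genes (median 0.43, 0 past the threshold, limma), where 48.5% of all probes had lower means. The difference of Ttr was 0.46 (limma, FDR = 0.873), or -0.35 without CD F1 replicate 4.

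**Figure D3:**
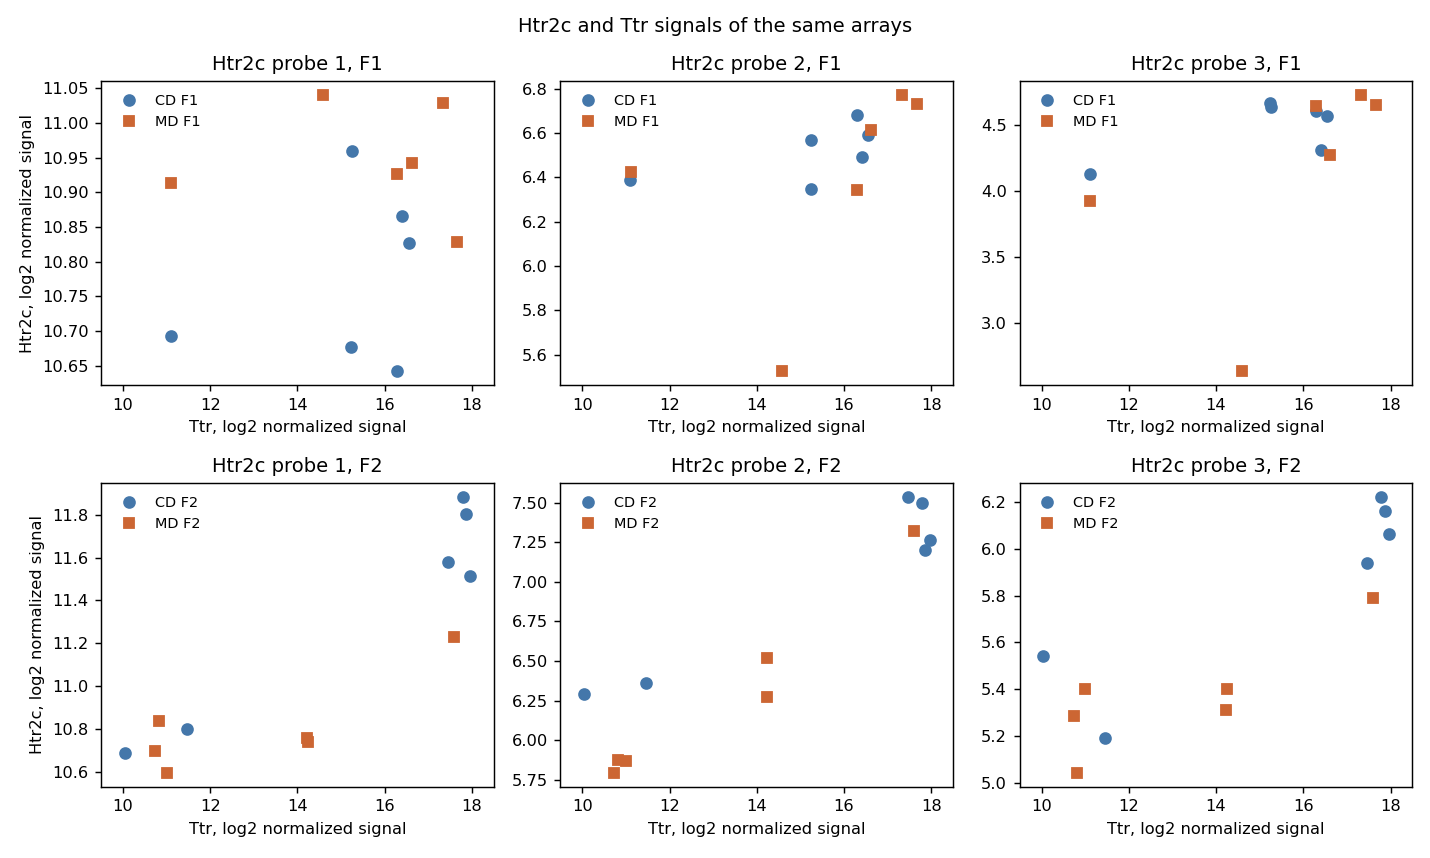
Log2 normalized signal of Ttr (x axis) and of each Htr2c probe (y axis, scaled for each probe) on the 12 arrays of F1 (top row) and F2 (bottom row). Circles are CD and squares MD arrays. In F2 the 5 arrays with Ttr above 17 have the highest signal of all 3 Htr2c probes, and in F1 the brightest probe shows no such order.

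The other receptors of F2 did not pass the test. Htr2a was at 6.68 to 7.49 on 5 CD F2 arrays and 9.01 on CD F2 replicate 5, and at 7.14 to 7.58 in MD F2. The high array sets the sign, since the difference was -0.03 with it (limma, FDR = 0.998) and 0.30 without it (limma, FDR = 0.847). Htr1a was steady, with levels from 8.31 to 8.64 in CD F2 and from 8.37 to 8.70 in MD F2, and its difference of 0.00 had a 95% interval from -0.17 to 0.17. Htr7 differed by -0.11 (95% interval -0.42 to 0.20), and the brighter Htr4 probe by 0.07 (95% interval -0.17 to 0.30). Leaving out 1 array gave -0.17 to -0.019 for Htr7 and 0.0034 to 0.12 for the brighter Htr4 probe.

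The ion channel subunit and the remaining Gs-coupled receptor came last. Htr3a ran from 7.98 to 9.73 in CD F2 and from 8.03 to 8.99 in MD F2, with a difference of -0.26 (95% interval -0.89 to 0.38) that ranged from -0.42 (without CD F2 replicate 5) to -0.065 (without CD F2 replicate 1) when 1 array was left out. Htr6 ran from 5.66 to 7.07 and from 5.96 to 6.63, with a difference of -0.10 (95% interval -0.63 to 0.43). Among probes near background, Htr1b, Htr1d and Htr5a differed by -0.21, 0.11 and -0.04. Leaving out 1 array gave -0.37 to 0.041 for Htr1b, 0.016 to 0.23 for Htr1d and -0.11 to 0.020 for Htr5a. The fainter Htr4 probe differed by -0.67 (SE 0.451, limma, FDR = 0.921), with CD F2 replicate 6 at 6.27 beside a highest value of 4.41 on the others of its group. The difference was -0.32 without that array, -0.39 without MD F2 replicate 3 and -0.035 without both.

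The third comparison set the effect in F1 against the effect in F2. No receptor probe passed in this test of the difference (limma, FDR under 0.1), where 5 probes of the array passed, which is 0.0127%. Before adjustment, 2 of 13 had a p under 0.05, beside 8.29% of all probes, 3.7% in the direction of these 2 and 4.59% in the other. They were the brightest Htr2c probe, whose effect was higher in F1 than in F2 by 0.76 (SE 0.241, limma, FDR = 0.398), and the fainter Htr4 probe, by 1.18 (SE 0.520, limma, FDR = 0.558). For probes 2 and 3 of Htr2c it was 0.62 and 0.12 (limma, FDR = 0.687 and 0.965). The fainter Htr4 probe was well above background on every F1 array but on only 4 of the 6 MD F2 arrays, and it leans on single arrays. Leaving out 1 array gave it differences of 0.30 to 0.62 in F1 and -0.80 to -0.32 in F2. Its F2 difference was smaller still without both arrays named above. In this comparison the effect was higher in F1 for all 26 choroid plexus genes (median 2.13), while it was lower for 52.4% of all probes. Of the 26, 0 passed the threshold and 7 had an unadjusted p under 0.05, and for Ttr the value was 2.81 (limma, FDR = 0.777). The part of these genes in the Htr2c value was not tested. For Htr2a the effect was lower in F1 than in F2 by -0.57 (95% interval -1.34 to 0.21, limma, FDR = 0.722), so a diet effect confined to F1 was not shown.

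Genes that work with the receptors were taken from lists that cover the pathway, with 1 probe per gene. None of 4 other receptor genes passed in F1 or F2 (limma, FDR under 0.1). Htr1f, another inhibitory receptor, was at 7.80 to 8.06 in CD F1 and 7.41 to 7.85 in MD F1, a difference of -0.28 (limma, FDR = 0.217). Htr5b, which resembles Htr5a, was well measured and differed by -0.07 in F1 and -0.12 in F2. Htr2b was well above background on only some arrays of each group, and Htr3b on none in F2.

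Of 10 genes for making, moving and breaking down serotonin, 0 passed in either generation, 1 was higher and 1 lower at an unadjusted p under 0.05 in F1 (6.96% and 7.48% of all probes), and likewise in F2 (3.22% and 2.38% of all probes). Ddc, the decarboxylase that completes serotonin synthesis, differed by -0.26 in F1 (limma, FDR = 0.340), and Maob, a mitochondrial oxidase of amines, by -0.29 in F2 (limma, FDR = 0.890). The 2 higher genes, named after their values were seen, were not well above background on every array. They were the transporter Slc6a4 in F1, by 0.46 (limma, FDR = 0.343), and Tph1, the tryptophan hydroxylase of tissues outside the brain, in F2, by 0.43 (limma, FDR = 0.890). Slc6a4 was not well above background on any MD F2 array, and Tph2, the rate-limiting enzyme of raphe neurons, lay between 3.15 and 5.04 in all groups. Of the 5 raphe markers Fev was the brightest, and Slc22a3 was under background in every group.

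Of 25 G proteins and effectors, 0 passed in either generation. In F1 3 were higher and 1 lower at an unadjusted p under 0.05, beside 14.4% of all probes in either direction (6.96% higher, 7.48% lower), and in F2 none was, beside 5.6%. The F1 count is close to the share of the array. The adenylyl cyclase Adcy8 differed by 0.27 and the phospholipase Plcb3 by 0.37, both with all MD F1 arrays above all CD F1 arrays (1.79% of all probes did not overlap in F1), and the catalytic subunit Prkaca of protein kinase A by -0.35 (limma, FDR = 0.213, 0.214 and 0.214). Of 11 genes listed as receptor-associated proteins or as editing enzymes and their relatives, 0 passed. At an unadjusted p under 0.05, 1 was higher and 1 lower in F1 and 1 higher in F2, with the shares of all probes as above. S100a10, which binds Htr1b and Htr4, differed by 0.26 in F1 (limma, FDR = 0.207), and Dlg4, a scaffold protein of synapses that binds Htr2a and Htr2c, by 1.03 in F2 (limma, FDR = 0.890). Adarb2, a relative of the editing enzymes without known editing activity, differed by -0.44 in F1 (limma, FDR = 0.235) and -0.47 in F2 (limma, FDR = 0.892). Neither Adar nor Adarb1, the enzymes known to edit Htr2c transcripts, passed the test.

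**Figure D4:**
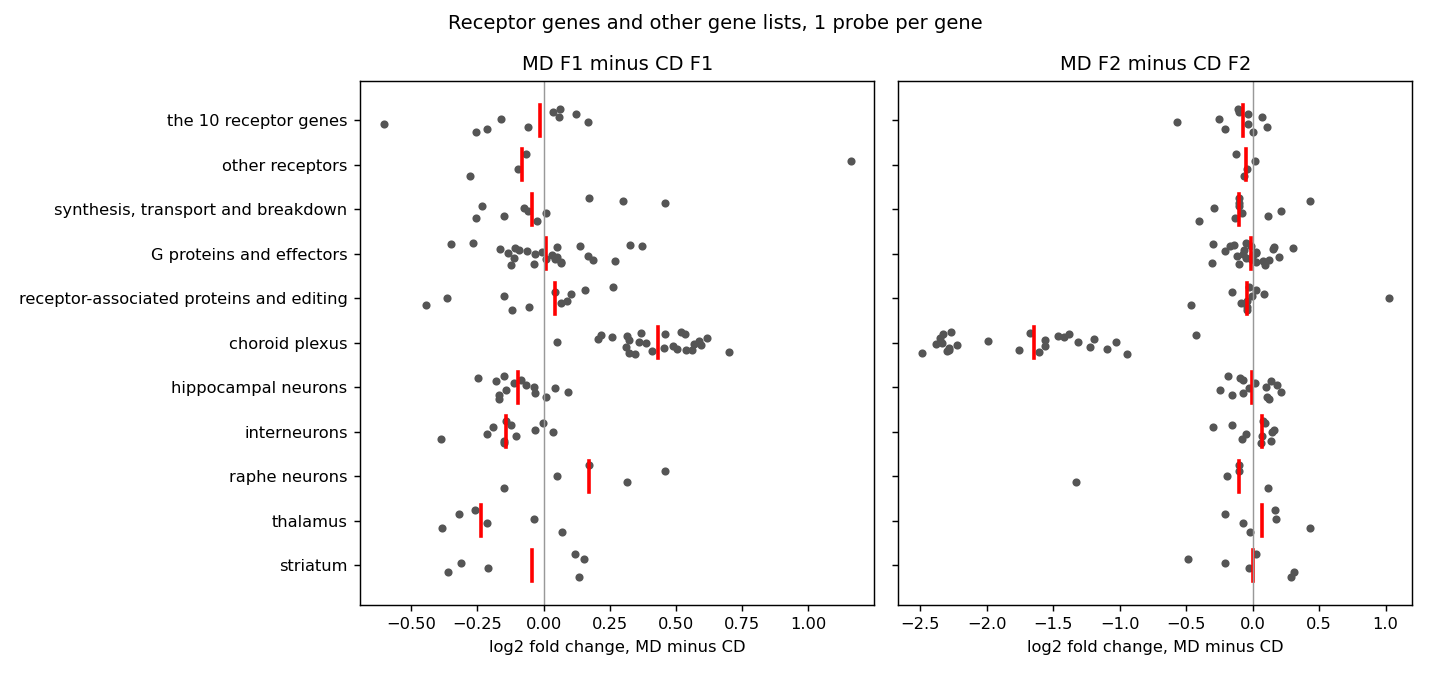
Log2 fold change of MD against CD (x axes, of different span) in F1 and F2 for the 10 receptor genes and 10 other gene lists, with 1 point per gene and the median of each list as a bar. All 26 choroid plexus genes lie above 0 in F1 and under 0 in F2, while the receptor genes have medians of -0.01 and -0.07.

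Markers of neighboring tissue and of other neurons were read in the same way, and 0 genes of any list passed in F1 or F2 (limma, FDR under 0.1). The median difference was -0.10 in F1 and 0.00 in F2 for 14 markers of hippocampal neurons, -0.14 and 0.07 for 11 markers of interneurons, -0.24 and 0.07 for 6 markers of the thalamus, -0.05 and 0.00 for 6 markers of the striatum, and 0.17 and -0.10 for the 5 raphe markers. In the arrays that gave the Htr2a difference, 11 of the 14 hippocampal, 10 of the 11 interneuron and 5 of the 6 thalamus markers had lower means in MD F1, where 48.5% of all probes did. Of these, 2, 1 and 2 were lower at an unadjusted p under 0.05, beside 7.48% of all probes. Their part in the Htr2a value was not tested.

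For each receptor above background on all arrays, the genes with the most similar pattern were sought among 13724 genes by the mean of the correlations within F1 and within F2, with values centred on group means and 12 arrays per generation. Arrays share RNA pool and hybridization, so these values only describe. Htr2c was most like Fat1 (mean r = 0.871), Cep41 (0.822), Yap1 (0.822), Caps2 (0.811) and Gulp1 (0.766), and in F2 its pattern is that of the high and low arrays given above. Htr2a was most like Zfp146 (0.933), Arl14ep (0.925) and Zfp26 (0.914). The closest gene was Zcchc2 for Htr4 (0.865), Alg1 for Htr7 (0.860), Usb1 for Htr6 (0.827), Cryab for Htr3a (0.826) and Ube2d1 for Htr1a (0.782).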

How the data were processed

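Hippocampal RNA of 24 pools was measured on Agilent arrays. The authors deposited the Feature Extraction output of each array (version 10.7.3.1 per the file headers), whose intensity values are background-subtracted, linear and not scaled between arrays, and a table of processed intensity values, quantile-normalized within each generation, used here as an alternative. Non-uniform and population-outlier spots were left out (1939 in F1, 2097 in F2), log2 intensities were quantile-normalized within a generation (all 24 arrays together for the difference between generations), and spots of a probe were averaged. Group means were fitted with limma 3.58.1 in R 4.3.3, and p-values were adjusted over all probes (Benjamini-Hochberg, FDR under 0.1). Symbols came from RefSeq accessions; no coordinates were used. Depth is given as spots well above background; the number of arrays limits the precision. Correlations used 100000 permutations. They had been planned and were computed over 12 arrays, but Ttr fell into sets, so r is tested over 10 F1 arrays and not tested for F2. The normexp alternative used median spot and background signals with an offset of 50, since a mean signal is not among the columns used.

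The rule named all probes of the 10 receptor genes, and of each other list the genes past the threshold or up to 3 with the smallest p that were well above background; members and lists were chosen with earlier results of these data known. Brightness over 24 arrays ranked the probes of a gene. The labels do not say that pools share no litter, so p-values measure the spread between pools. Replicate numbers did not pair the samples. The fit was tested on simulated data. Alternatives changed the scaling, background correction, filters, covariates, blocks and arrays.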

Additional observations from a re-analysis of the deposited data

Results flagged for a closer look

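Among 56 sets of 6 arrays (13 receptor probes and Ttr in 4 groups), 7 held an array whose gap to the nearest other was a large part of the range of its group, and chance alone marks about 1 set in 20. In F1, Ttr was 11.10 on CD F1 replicate 4 with the next at 15.23. On MD F1 replicate 6, Htr2c probe 2 was 5.52 with the next at 6.34, and Htr5a was 6.02 with the next at 4.75. In F2, Htr2a was 9.01 on CD F2 replicate 5 with the next at 7.49, and the fainter Htr4 probe was 6.27 on CD F2 replicate 6 with the next at 4.41. The brighter Htr4 probe was 9.55 on MD F2 replicate 6 with the next at 9.82, and Htr1d, near background, was 3.76 on MD F2 replicate 4 with the next at 4.35.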

How the results depend on the processing

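No receptor probe was called in F1, F2 or their difference under any alternative but 1, including every omission of an array (0 to 0 calls). Without normalization between arrays all probes of F1 shifted by -0.28 (median, log2), 4 receptor probes were called in F1 and the median over the receptor probes was -0.47. Htr2a, at -0.93, is 1 of the 4, and relative to the shift of all probes its difference keeps its sign.

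Counts over all probes moved more. In F1 13 calls became 4 with scaling to the 75th percentile, 73 with all 24 arrays together, 7952 without normalization, 5 with normexp, 6 with dim probes left out, 2 with Ttr as a covariate, and 0 with the slide as a block, the sex-linked measure as a covariate, the replicate block or FDR under 0.05. Leaving out 1 array gave 0 to 152 in F1, the highest without MD F1 replicate 6, 34 without MD F1 replicate 1 and 5 without CD F1 replicate 6, and 0 without each other array. In F2 the 0 calls became 18 with all 24 arrays together and 0 to 1 without 1 array (1 without MD F2 replicate 1 and 1 without replicate 2). For the difference between generations, 5 calls became 0 without normalization (2764 at an unadjusted p under 0.05 in limma), 9 with normexp, 12 with dim probes left out, 12 with the sex-linked measure, 3 with Ttr as a covariate and 27 with the replicate block. Omissions gave 3 to 41 calls, the highest without CD F2 replicate 6. Chosen after seeing the data, leaving out the 2 dim F2 arrays gave 47 and leaving out MD F1 replicate 6 as well gave 22. The replicate block changed no call of a receptor, and same-numbered arrays correlated from -0.44 to 0.44, so the numbers do not pair the samples.

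The median over the 13 probes stayed between -0.10 and -0.01 in F1 and between -0.24 and -0.02 in F2 when 1 array was left out, and the difference of Ttr between -0.35 and 1.36 in F1 and -3.40 and -1.82 in F2. Scaling to the 75th percentile moved the F1 median over the 13 probes to -0.20, where the median of all probes was -0.013. Signs turned for several probes. In F1, without normalization, Htr6 was -0.37, the brightest Htr2c probe -0.091, the brighter Htr4 probe -0.23, Htr5a -0.28 and Htr7 -0.20; of these, Htr6 alone lay below the median shift of all probes. With scaling to the 75th percentile Htr6 was -0.10 and Htr5a -0.010. With the sex-linked measure Htr6 was -0.0058, the brighter Htr4 probe -0.078, Htr5a -0.32, Htr7 -0.22 and probes 2 and 3 of Htr2c 0.25 and 0.23. In F2 Htr1a was -0.037 with 75th percentile scaling, -0.083 without normalization, -0.0064 with normexp, -0.0047 with the sex-linked measure, -0.012 with Ttr and -0.019 without the dim arrays. Also in F2, Htr1b was 0.020 with normexp, Htr1d -0.015 without normalization, Htr2a 0.10 with the sex-linked measure, and, without the dim arrays, the brighter Htr4 probe -0.018 and Htr5a 0.066. Without 1 array the ranges that cross 0 were -0.041 to 0.033 for Htr1a, -0.37 to 0.041 for Htr1b, -0.17 to 0.30 for Htr2a, -0.11 to 0.020 for Htr5a and -0.24 to 0.042 for Htr6 in F2, and -0.18 to 0.066 for Htr2c probe 2, -0.11 to 0.24 for Htr5a, -0.019 to 0.083 for Htr6 and -0.056 to 0.16 for Htr7 in F1. The cause of the other turns was not tested.

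The correlation of Ttr with the brightest Htr2c probe over 10 F1 arrays was 0.013 with 75th percentile scaling, 0.16 without normalization, 0.419 without the 2 arrays farthest from the median of Ttr, 0.770 and 0.581 with probes 2 and 3, and -0.30 to 0.29 without 1 array. The planned correlations over 12 arrays of each generation and within each group were computed first (12 tests). Within groups they are not given, and in F2 they are given without a test, because Ttr fell into sets, and the 10 F1 arrays were chosen after seeing the data; the adjustment over 6 relations does not cover those 12 tests. The F2 correlation was not recomputed under other scalings or filters.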
